A study of Mus musculus with 12 samples.

Results

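Cytochrome P450 genes of families 1 to 4 were followed in hepatocyte nuclei of mouse liver, of the cell suspension made from it, and of hepatocytes cultured for 24 hours. Of 32285 genes in the matrices, 80 had a symbol of Cyp, a digit from 1 to 4, a letter and digits (a closing letter as in Cyp4a12a was accepted, pseudogenes were not). The 54 members described here were those with a mean of at least 2 CPM (counts scaled to a total of 1000000 per sample) in hepatocyte nuclei of at least 1 of the 3 sample types. Measured levels therefore chose the members. Of the 54, 38 reached 2 CPM in every sample type, 10 did so in Liver and Cell Suspension but not in Primary Hepatocytes (Cyp4a10, Cyp4a14, Cyp4a31, Cyp4f14, Cyp2c40, Cyp2c69, Cyp2d11, Cyp2d12, Cyp2j8 and Cyp2j11), and 5 did so in Primary Hepatocytes alone (Cyp4f16, Cyp2g1, Cyp4b1, Cyp2j13 and Cyp2t4). Just inside the threshold, by the highest of the 3 group means, were Cyp2t4 (2.44 CPM), Cyp2j11 (2.57), Cyp2j13 (2.64) and Cyp4b1 (2.67), and just outside were Cyp3a57 (1.54), Cyp2d34 (1.46), Cyp2j12 (1.29) and Cyp2b9 (1.26).

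P450 enzymes of these families sit in the endoplasmic reticulum, bind haem and insert an oxygen atom into their substrate with electrons that they receive from P450 oxidoreductase (Por) and cytochrome b5. Families 1 to 3 oxidise drugs, toxins, steroids and unsaturated fatty acids, and many members of family 4 hydroxylate the end of fatty acid chains. Their transcription in the liver is under nuclear receptors and the Ah receptor, many differ between the sexes or along the lobule from portal tract to central vein, and hepatocytes in culture are known for losing their P450 activity.

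All 24 samples came from 8 wild-type male mice of 10 to 12 weeks, given avertin before surgery, without any other treatment (the labels name the strain C57BL6J and the study's methods C57BL/6NTac). Each mouse gave 1 sample of each type: Liver, a piece of the median lobe cut off after perfusion with calcium-free buffer and before collagenase; Cell Suspension, the cells freed by collagenase perfusion, washed by low-speed spins, which favour hepatocytes; and Primary Hepatocytes, those cells after 24 hours on collagen-coated wells in medium with serum, dexamethasone and insulin, harvested with trypsin. Dissociation and centrifugation thus lie between Liver and Cell Suspension, and attachment, medium, time and the trypsin harvest lie together between Cell Suspension and Primary Hepatocytes, where their parts cannot be told apart. Nuclei were hashtagged by sample and run in 6 pools, of which only 2 held both Liver and Primary Hepatocytes. A total of 42467 of the 53467 nuclei were hepatocytes by the deposited annotation, with 675 to 2585 nuclei, 2065229 to 29018248 counted RNA molecules (UMIs) and a median of 1849 to 14002.5 UMIs per nucleus in each sample. Of the hepatocyte nuclei, 120 were annotated against their sample type and were kept. They were cultured cells outside Primary Hepatocytes, or other hepatocytes within Primary Hepatocytes.

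Levels below are the summed UMIs of all hepatocyte nuclei of a sample, as CPM scaled by edgeR's TMM factors, which averaged 0.916 in Liver, 0.828 in Cell Suspension and 1.33 in the cultured samples. The exceptions are the marker sums, the comparison with other cell types, the zonal levels and the levels in author clusters. These are plain CPM without the factors. UMI counts were not divided by gene length, so levels are compared between samples and not between genes. The label hepatocyte was checked against 5 hepatocyte markers, whose summed level was 7919 to 13658 CPM in Liver, 8168 to 14282 in Cell Suspension and 1852 to 5646 in the cultured samples, with none of the 5 below 1 CPM. In the same nuclei the 5 endothelial markers summed to 22.1 to 35.2 CPM in Liver, 22.9 to 46.5 in Cell Suspension and 43.9 to 62.1 in the cultured samples, and the 5 stellate markers, 3 of them below 1 CPM in each sample type, to 16.6 to 42.4, 14.2 to 42.6 and 45.9 to 626. The 5 Kupffer cell markers stayed between 6.31 and 21.3 CPM. Their part in the results was not tested. Fewer nuclei at a high level and less RNA in every nucleus give the same sum and cannot be told apart in these levels.

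The members lie in clusters: 14 on chromosome 19 (the Cyp2c genes), 13 on chromosome 4 (Cyp4a, Cyp4b and Cyp2j), 8 on chromosome 7, 7 on chromosome 15, 5 on chromosome 17, 4 on chromosome 5 (Cyp3a) and 1 each on chromosomes 3, 8 and 9. Copies within a cluster are alike, and 17 of the 54 had a longest coding transcript with at least 95% identity, over the best alignment, to that of another of the 80 genes, such as Cyp4a12a with Cyp4a12b (98.25%), Cyp3a25 with Cyp3a59 (96.99%) and Cyp2c40 with Cyp2c68 (98.03%). How reads were shared out among such pairs is uncertain, as it is for the 13 members that overlap another gene, among them Cyp2c29, Cyp2d9, Cyp2d10, Cyp2f2, Cyp3a13, Cyp4v3 and Cyp2u1.

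The 150 bases before the start of 5 members are printed because these genes span the responses: Cyp2b10 and Cyp4f16 were higher in culture, Cyp3a25 and Cyp4a32 fell by far more than most members, and Cyp3a13 fell little. They are RefSeq promoter sequences of GRCm38.p6, read along the strand of the gene, and capitals mark matches on either strand to any of 7 motifs that were searched (TATAAA, the TATA box; CAAAGTCCA, bound by HNF4A; AGGTCA, the core of nuclear receptor sites; GTTAAT; TTGCNNAA, the core of C/EBP sites; GCGTG, the core bound by the Ah receptor with Arnt; and TTGGCA, part of the NF1 site).
Cyp2b10 (chr7:25897508-25897657, plus strand): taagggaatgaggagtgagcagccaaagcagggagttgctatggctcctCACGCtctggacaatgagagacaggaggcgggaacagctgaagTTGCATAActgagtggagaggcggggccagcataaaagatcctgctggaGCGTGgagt
Cyp4f16 (chr17:32536407-32536556, plus strand): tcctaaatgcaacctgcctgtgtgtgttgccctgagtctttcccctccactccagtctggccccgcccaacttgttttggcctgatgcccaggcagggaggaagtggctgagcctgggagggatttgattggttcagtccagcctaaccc
Cyp3a25 (chr5:146009619-146009768, minus strand): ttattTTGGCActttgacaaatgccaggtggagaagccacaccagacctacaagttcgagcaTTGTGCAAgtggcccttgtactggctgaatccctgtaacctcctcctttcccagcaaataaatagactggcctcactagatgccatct
Cyp4a32 (chr4:115600788-115600937, plus strand): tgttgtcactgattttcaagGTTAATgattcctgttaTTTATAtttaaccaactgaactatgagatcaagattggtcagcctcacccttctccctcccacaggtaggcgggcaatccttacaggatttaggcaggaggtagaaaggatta
Cyp3a13 (chr5:137921620-137921769, minus strand): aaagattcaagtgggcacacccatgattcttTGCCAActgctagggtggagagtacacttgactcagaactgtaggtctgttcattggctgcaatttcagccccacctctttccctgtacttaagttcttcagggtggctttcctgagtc

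Cyp2b10 held TTGCNNAA at 58 bases before its start and GCGTG at 9 bases and, on the other strand, at 101 bases. Cyp4f16 held none of the 7 in this window. Cyp3a25 held TTGGCA at 145 bases and, on the other strand, TTGCNNAA at 88 bases, Cyp4a32 held GTTAAT at 130 bases and TATAAA on the other strand at 113 bases, and Cyp3a13 held TTGGCA on the other strand at 119 bases. A promoter was found for 42 members. In the 250 bases before the start, on either strand, TATAAA was in 18 of the 42 (42.9%) and in 12.97% of all 27025 promoters. GCGTG was in 7 (16.7%, against 28.2% of all), AGGTCA in 9 (21.4% against 13.8%), TTGCNNAA in 9 (21.4% against 9.55%), TTGGCA in 10 (23.8% against 12.5%) and GTTAAT in 6 (14.3% against 6.52%). These matches are a description of letters and not of bound sites.

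CAAAGTCCA, a sequence bound by HNF4A, the nuclear receptor that maintains hepatocyte identity, was in 6 of the 42 (14.3%) and in 0.381% of all promoters. The 6 windows of 60 bases are printed with the match in capitals because 4 of the genes are neighbouring Cyp2c copies whose windows are alike outside the match as well.
Cyp2c40 (chr19:39812825-39812884, minus strand): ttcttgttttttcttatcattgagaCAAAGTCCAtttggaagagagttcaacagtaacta
Cyp2c67 (chr19:39649133-39649192, minus strand): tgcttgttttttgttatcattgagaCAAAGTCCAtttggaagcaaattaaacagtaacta
Cyp2c68 (chr19:39741144-39741203, minus strand): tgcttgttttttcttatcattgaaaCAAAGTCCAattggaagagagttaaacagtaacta
Cyp2c69 (chr19:39886810-39886869, minus strand): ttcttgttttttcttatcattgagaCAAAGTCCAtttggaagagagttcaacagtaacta
Cyp2c70 (chr19:40187316-40187375, minus strand): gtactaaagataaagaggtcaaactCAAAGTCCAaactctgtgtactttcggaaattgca
Cyp3a11 (chr5:145879929-145879988, minus strand): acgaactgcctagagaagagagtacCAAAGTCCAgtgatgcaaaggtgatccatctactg

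The match lay 45 bases before the start in Cyp2c40, 125 in Cyp2c67, 77 in Cyp2c68, 75 in Cyp2c69, 64 in Cyp2c70 and 109 in Cyp3a11.

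The comparison of Primary Hepatocytes with Liver asks what isolation and 1 day of culture do to P450 transcripts. The sum of the 54 members took 0.764% to 1.38% of all hepatocyte UMIs in Liver (median 1.13%), 0.751% to 1.20% in Cell Suspension (median 1.02%) and 0.110% to 0.170% in the cultured samples (median 0.129%). The cultured samples lay below all others. Of the 49 members with a mean of at least 2 CPM over the 24 samples, 44 were lower and 2 were higher in Primary Hepatocytes than in Liver at an adjusted p under 0.05 (edgeR quasi-likelihood, Benjamini-Hochberg over all genes tested). Among all 13459 genes at that level, 40.9% were lower and 32.8% were higher. The median log2 fold change was -3.71 over the 49 and -0.11 over all genes at that level. For members that reached 2 CPM in some sample types and not in others, part of the difference follows from the choice, so these counts describe the members and support nothing further, and the changes of the 10 members under 2 CPM in culture are given as values without a test, although 8 of them are counted among the 44. Of the 38 members that reached 2 CPM in every sample type, 36 were lower and 0 higher. A decrease of at least 3 on the log2 scale was found in 29 of the 49 (5.58% of all genes), and the 8 samples of one type did not overlap the 8 of the other in 37 (49.4% of all genes, in either direction). The 5 members under that mean (Cyp2d12, Cyp4b1, Cyp2j13, Cyp2j11 and Cyp2t4) are given by their values alone. The pools that held both types had Liver of mice 4 and 5 and Primary Hepatocytes of mice 3, 4 and 8. Within these few samples 44 members were lower and 2 were higher (median -3.85). With pool as a covariate in all samples 41 were lower and 2 higher. Without the hepatocyte nuclei annotated against their sample type, 44 were lower and 2 higher (median -3.82). Over all 80 genes by symbol, including the rarely detected, 47 were lower and 9 were higher. The 40.9% and 32.8% rest on the 13459 genes alone, which leave out those under 2 CPM. They are no match for the 80, so these counts are a description.

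**Figure D1:**
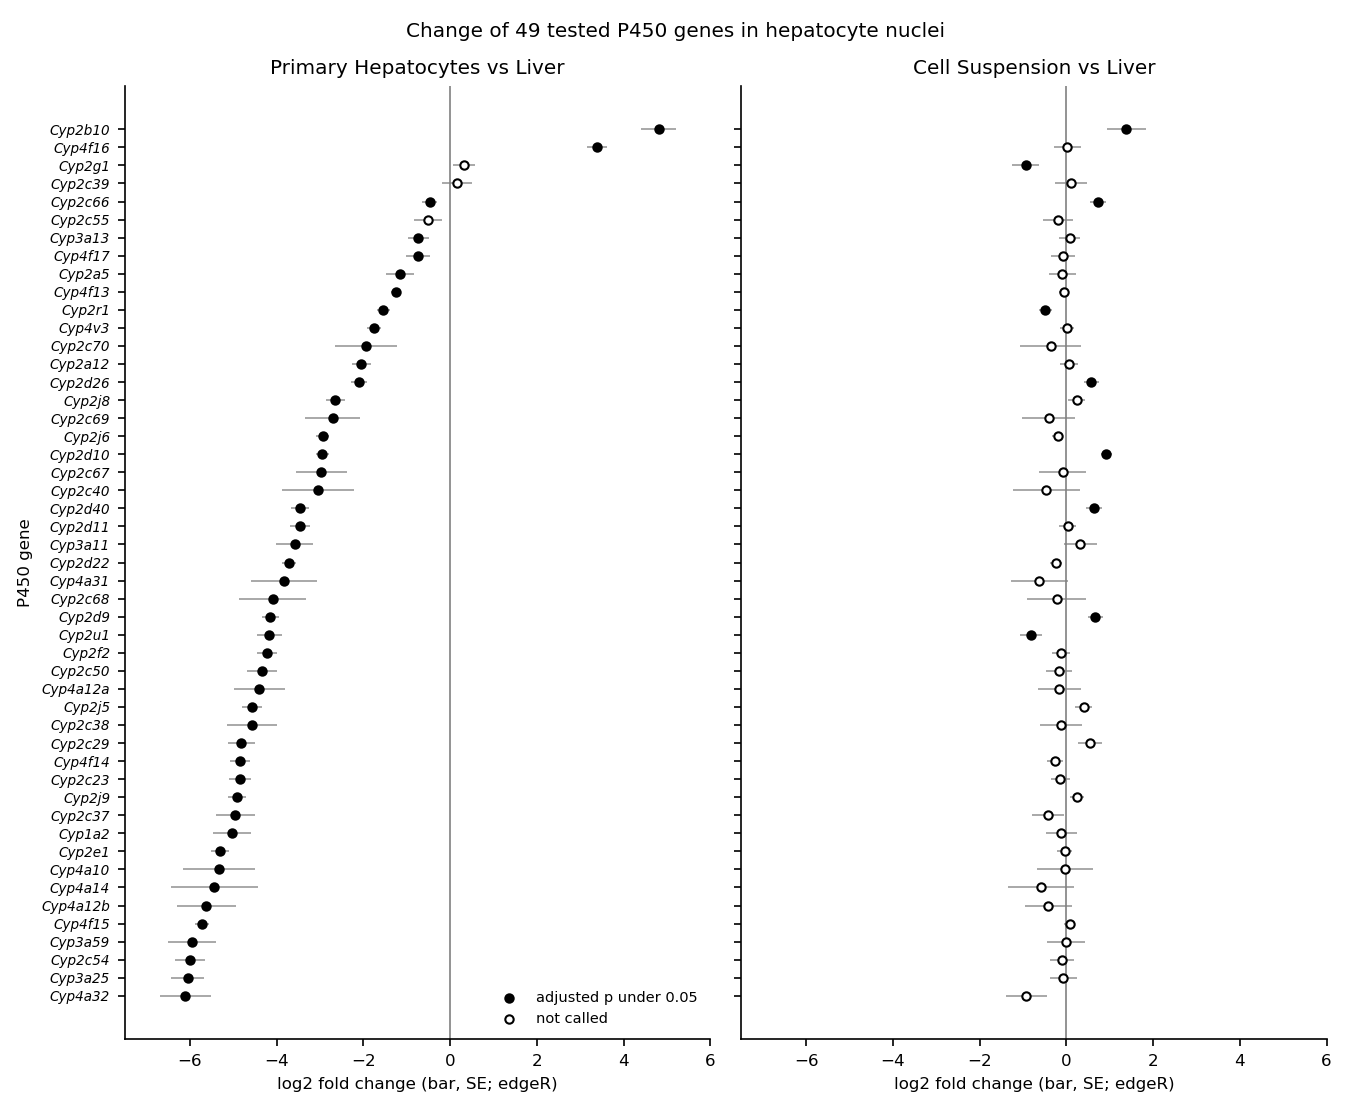
Log2 fold change with its standard error (edgeR) of each of the 49 members for Primary Hepatocytes against Liver and for Cell Suspension against Liver, 8 samples per type. The points for Cell Suspension run from -0.94 (Cyp2g1) to 1.38 (Cyp2b10) and those for Primary Hepatocytes from -6.10 (Cyp4a32) to 4.81 (Cyp2b10).

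Cyp1a2, which oxidises caffeine and aromatic amines and is a target of the Ah receptor, ranged from 57.7 to 274 CPM in Liver (median 167), 48.5 to 403 in Cell Suspension (median 126) and 2.45 to 7.72 in the cultured samples (median 4.82). It fell by 5.04 ± 0.44 on the log2 scale against Liver (SE, adjusted p = 2.65e-11). Cyp2e1, which oxidises ethanol and paracetamol, had 1058 to 2078 CPM in Liver (median 1285), 1009.7 to 1798 in Cell Suspension (median 1322) and 25.9 to 50.6 in the cultured samples (median 32.9). Every cultured sample lay far below every other, and the log2 fold change was -5.30 ± 0.21 (adjusted p = 2.94e-19). Cyp2f2, which activates naphthalene and marks periportal hepatocytes, went from a median of 213 CPM in Liver (124 to 309) to 10.8 in Primary Hepatocytes (6.07 to 22.8), a log2 fold change of -4.22 ± 0.23. The 2 Cyp2a members fell less. Cyp2a12 went from 109 to 171 CPM in Liver (median 156) to 13.4 to 61.0 in Primary Hepatocytes (median 34.0), with a log2 fold change of -2.05 ± 0.22, and the groups did not overlap. Cyp2a5, which oxidises coumarin and nicotine, had 75.4 to 312 CPM in Liver (median 145) and 41.6 to 135 in Primary Hepatocytes (median 68.2), so that the groups overlapped. Its log2 fold change of -1.15 ± 0.32 (adjusted p = 2.58e-03) was -0.64 (adjusted p = 0.0946) when no scaling factors were used.

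**Figure D2:**
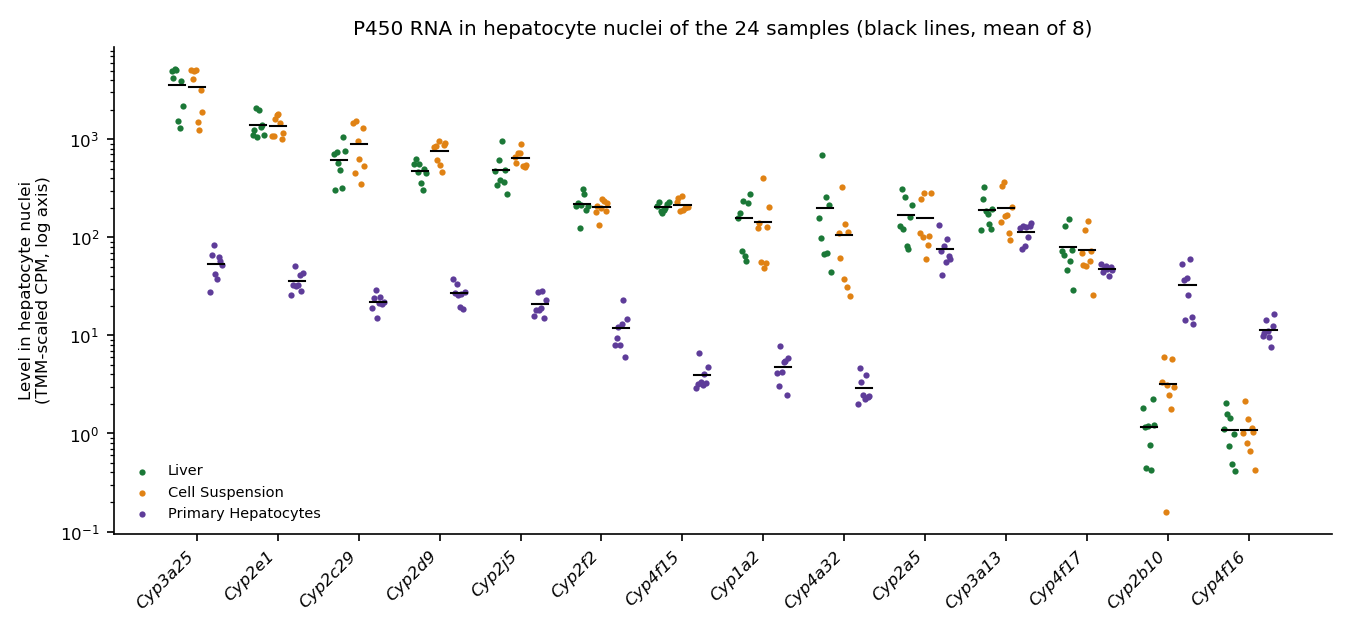
Level of 14 members in each of the 24 samples, as TMM-scaled CPM of hepatocyte nuclei on a log axis. Each sample is 1 point, and a bar marks the group mean. The cultured samples lie below the others for Cyp3a25, Cyp2e1 and Cyp1a2, among them for Cyp3a13 and Cyp4f17, and above them for Cyp2b10 and Cyp4f16.

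The Cyp2c genes, which form epoxides of arachidonic acid and oxidise many drugs, held 14 members. Of the 12 that reached 2 CPM in every sample type, 10 were lower and 0 higher, beside 40.9% and 32.8% of all genes. Cyp2c29 had 302 to 1056 CPM in Liver (median 641), 347 to 1524 in Cell Suspension (median 796) and 15.0 to 29.0 in the cultured samples (median 21.8), with a log2 fold change of -4.81 ± 0.32 (adjusted p = 4.87e-14). Cyp2c54 went from 96.2 to 466 CPM in Liver (median 212) to 2.07 to 5.14 (median 3.89), a log2 fold change of -6.00 ± 0.34. Neither gene overlapped between the types. Cyp2c23, an arachidonic acid epoxygenase, went from 120 to 314 CPM (median 251) to 4.75 to 11.2 (median 7.71), with a log2 fold change of -4.85 ± 0.26. Cyp2c37 (-4.95 ± 0.45) and Cyp2c50 (-4.33 ± 0.34) were of like size on the log2 scale, and Cyp2c38 (-4.57 ± 0.57) and Cyp2c68 (-4.09 ± 0.77) had larger errors. Without mouse 3 Cyp2c38 was at -3.95, and without mouse 5 Cyp2c68 was at -3.05 and Cyp2c67 at -2.18 instead of -2.96. Cyp2c70, which makes muricholic acids from chenodeoxycholic acid, had overlapping levels in all 3 sample types. It had 65.4 to 2511 CPM in Liver (median 175), 55.4 to 1957 in Cell Suspension (median 132) and 75.4 to 386 in the cultured samples (median 139). Its log2 fold change was -1.94 ± 0.72 against Liver (adjusted p = 0.0228) and -1.57 ± 0.71 against Cell Suspension (adjusted p = 0.0648). The call against Liver was lost without mouse 5 (-1.17, adjusted p = 0.122) and with the replicate block of mouse (-0.74, adjusted p = 0.0953). Against Cell Suspension the edgeR log2 fold change without mouse 5 was -0.81 (adjusted p = 0.306).

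Cyp2c39 and Cyp2c55 did not pass the test. Cyp2c39 had a median of 3.46 CPM in Liver, 3.95 in Cell Suspension and 4.56 in the cultured samples, with a log2 fold change of 0.16 ± 0.34 (adjusted p = 0.735). Cyp2c55 had medians of 8.04, 7.24 and 6.45 CPM and a log2 fold change of -0.51 ± 0.33 (adjusted p = 0.203), which was 0.02 without scaling factors (adjusted p = 0.960) and -0.78 (adjusted p = 0.0375) within the pools that held both types. The groups overlapped for both genes. Cyp2c66 passed with a small difference (-0.47 ± 0.18, adjusted p = 0.0262), from 1.62 to 3.18 CPM in Liver to 1.23 to 2.16 in Primary Hepatocytes. It did not pass without mouse 1, 2, 4 or 5. Cyp2c40 had a median of 1.49 CPM in Liver (0.647 to 42.2) and 0.946 in Primary Hepatocytes, and Cyp2c69 had 1.40 CPM (0.615 to 19.2) and 0.695. Both overlapped between the types, and their log2 fold changes of -3.04 ± 0.83 and -2.71 ± 0.64 were -1.65 and -1.78 without mouse 5.

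All 5 Cyp2d members that reached 2 CPM in every sample type fell against Liver, beside 40.9% of all genes. Cyp2d9, a male-biased steroid 16-alpha-hydroxylase, had 307 to 630.5 CPM in Liver (median 480), 465 to 968 in Cell Suspension (median 849) and 18.6 to 37.7 in the cultured samples (median 26.5), a log2 fold change of -4.15 ± 0.19 (adjusted p = 1.85e-17). Cyp2d10 had 121 to 189 CPM in Liver and 12.03 to 25.5 in Primary Hepatocytes (-2.95 ± 0.15 on the log2 scale). Cyp2d22 had 109 to 172 CPM in Liver and 6.54 to 16.3 in Primary Hepatocytes (-3.71 ± 0.16). None of the 3 overlapped between these types, and Cyp2d40 fell by 3.45. Cyp2d26 fell the least of the 5 (-2.10 ± 0.18). The log2 fold change of Cyp2d11 was -3.46. Of the 5, 4 were higher in Cell Suspension than in Liver, as given below. All 3 Cyp2j epoxygenases that reached 2 CPM in every sample type fell, where 40.9% of all genes did. Cyp2j5 went from 274 to 966 CPM (median 430) to 15.1 to 28.3 (median 18.6), with a log2 fold change of -4.56 ± 0.23 (adjusted p = 9.23e-17). Those of Cyp2j9 and Cyp2j6 were -4.91 ± 0.20 and -2.94 ± 0.15. The log2 fold change of Cyp2j8 was -2.64. Cyp2u1, a fatty acid hydroxylase, went from 31.99 to 126 CPM (median 64.1) to 3.46 to 5.67 (median 3.95), a log2 fold change of -4.17 ± 0.29. Cyp2r1, a vitamin D 25-hydroxylase, went from 23.2 to 35.0 CPM (median 29.96) to 6.22 to 13.5 (median 10.3), a smaller log2 fold change of -1.54 ± 0.16.

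All 4 Cyp3a members, relatives of human CYP3A4 that oxidise steroids and a large share of drugs, were lower, as were 40.9% of all genes. The sizes of their changes were far apart. Cyp3a25 had 1300.5 to 5188 CPM in Liver (median 4099), 1247 to 5124 in Cell Suspension (median 3662) and 28.0 to 83.2 in the cultured samples (median 54.7), with a log2 fold change of -6.05 ± 0.39 (adjusted p = 2.21e-14). Cyp3a59, its near copy, went from 47.2 to 597 CPM in Liver to 2.96 to 11.6 (-5.95 ± 0.55 on the log2 scale). Cyp3a11, a target of the pregnane X receptor, had 68.4 to 595 CPM in Liver (median 334) and 20.4 to 35.6 in Primary Hepatocytes (median 26.6), a log2 fold change of -3.58 ± 0.43 (adjusted p = 1.75e-08). Cyp3a13 had 118 to 324 CPM in Liver (median 181), 94.7 to 369 in Cell Suspension (median 166) and 75.6 to 140 in the cultured samples (median 126). Its groups overlapped and its log2 fold change was -0.73 ± 0.24 (adjusted p = 0.0105), which became -0.20 (adjusted p = 0.468) without scaling factors, -0.53 (adjusted p = 0.0666) without mouse 2 and -0.60 (adjusted p = 0.0561) without mouse 4.

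Of family 4, the Cyp4a genes, fatty acid omega-hydroxylases under PPAR-alpha, held 6 members. The 3 that reached 2 CPM in every sample type (Cyp4a32, Cyp4a12a and Cyp4a12b) were lower, as were 40.9% of all genes. Cyp4a32 had 44.5 to 683 CPM in Liver (median 128), 25.1 to 327 in Cell Suspension (median 85.7) and 1.97 to 4.62 in the cultured samples (median 2.44), a log2 fold change of -6.10 ± 0.59 (adjusted p = 2.73e-10) that was -5.52 without mouse 3. The near copies Cyp4a12a and Cyp4a12b, male-biased in the liver, fell by 4.39 ± 0.59 and 5.62 ± 0.69. Cyp4a10 went from 4.61 to 168 CPM (median 15.6) to 0.376 to 1.76 (median 0.859), a log2 fold change of -5.32 ± 0.83. Cyp4a14 (0.740 to 93.2 CPM in Liver, 0.254 to 0.866 in Primary Hepatocytes) overlapped between the types, with -5.43 ± 1.00, as did Cyp4a31 (-3.83 ± 0.77). Without mouse 3 these were -4.30 for Cyp4a10, -4.34 for Cyp4a14 and -2.45 for Cyp4a31. The Cyp4f genes, which hydroxylate leukotrienes and long-chain fatty acids, were split. Cyp4f15 had 175 to 230.3 CPM in Liver (median 202) and 2.92 to 6.61 in Primary Hepatocytes (median 3.33), a log2 fold change of -5.72 ± 0.16 (adjusted p = 1.17e-21), and the log2 fold change of Cyp4f14 was -4.84 ± 0.23. Cyp4f13 fell by 1.26 ± 0.11, and Cyp4f17 had 29.3 to 155 CPM in Liver (median 69.1) and 40.6 to 53.1 in Primary Hepatocytes (median 47.8), with overlap and a log2 fold change of -0.74 ± 0.27 (adjusted p = 0.0237), and did not pass without mouse 2, 3 or 5 (-0.52, adjusted p = 0.0817, without mouse 5). Cyp4v3, another fatty acid hydroxylase, went from 106 to 216 CPM to 31.3 to 60.5 without overlap (-1.76 ± 0.17 on the log2 scale).

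Cyp2b10 and Cyp4f16 were the 2 members counted as higher. Cyp2b10, the classic target of the constitutive androstane receptor, had 0.422 to 2.23 CPM in Liver (median 1.17), 0.159 to 6.06 in Cell Suspension (median 3.03) and 12.96 to 60.65 in the cultured samples (median 31.6). All cultured samples lay above all others, and the log2 fold change was 4.81 ± 0.40 against Liver, 3.43 ± 0.39 against Cell Suspension (adjusted p = 8.64e-09) and 1.38 ± 0.45 between Cell Suspension and Liver. Since it met the choice of members in Cell Suspension and culture but not in Liver, both differences from Liver are a description without a test. The receptor's own transcript, Nr1i3, moved the other way and went from 34.6 to 92.3 CPM in Liver (median 63.1) to 0.266 to 1.89 (median 1.06), a log2 fold change of -6.11 ± 0.30 (adjusted p = 6.09e-17). Cyp4f16 had 0.410 to 2.02 CPM in Liver (median 1.05), 0.421 to 2.14 in Cell Suspension (median 1.03) and 7.68 to 16.4 in the cultured samples (median 10.8), a log2 fold change of 3.38 ± 0.24 (SE). It was chosen through its cultured level alone, so this difference is a description without a test, and its longest transcript is 96.08% identical to that of Cyp4f37. Cyp2g1, also chosen through its cultured level alone, had medians of 2.60 CPM in Liver, 1.06 in Cell Suspension and 2.32 in the cultured samples, and its log2 fold change against Liver was 0.32 ± 0.25. That value was -0.06 with spliced counts alone, 0.60 with all nuclei and 0.85 without scaling factors.

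The members below the mean of 2 CPM were near the floor in every sample type. Cyp2d12 spanned 1.65 to 6.05 CPM in Liver and 0.152 to 0.473 in Primary Hepatocytes, and Cyp2j11 spanned 1.88 to 4.13 and 0.473 to 1.06. Neither overlapped between these types. Cyp2j13 spanned 0.706 to 2.02 CPM in Liver and 1.60 to 2.63 in Primary Hepatocytes, and Cyp2t4, which overlaps Egln2, spanned 0.664 to 1.23 and 1.14 to 2.96, with overlap in both. Cyp4b1 spanned 0.837 to 1.61 and 1.56 to 2.60 CPM.

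The comparison of Cell Suspension with Liver covers the steps before culture. Of the 49 members, 6 were higher and 3 were lower at an adjusted p under 0.05 (edgeR), where 11.4% of all genes at that level were higher and 22.7% were lower, and the median log2 fold change was -0.09. Of these, 4 Cyp2d members made up most of the increases. Cyp2d10 had 121 to 189 CPM in Liver (median 151) and 203 to 354 in Cell Suspension (median 302), a log2 fold change of 0.92 ± 0.14 (adjusted p = 6.36e-06), and it was the 1 member whose groups did not overlap, as those of 9.76% of all genes did not. Cyp2d9 rose by 0.67 ± 0.17 on the log2 scale (adjusted p = 4.23e-03), Cyp2d40 by 0.64 ± 0.18 (adjusted p = 9.41e-03) and Cyp2d26 by 0.58 ± 0.17 (adjusted p = 0.0135), each with overlap. Cyp2c66 (0.74 ± 0.19, adjusted p = 3.62e-03) and Cyp2b10, given above as a description, were the other increases counted. The decreases were Cyp2u1 (-0.82 ± 0.25, adjusted p = 0.0183), Cyp2r1 (-0.48 ± 0.16, adjusted p = 0.0267) and Cyp2g1 (-0.94 ± 0.31, adjusted p = 0.0279). Without scaling factors 3 members were higher and 4 were lower. Cyp2d10 passed in every other fit and Cyp2c66 in every other fit that tested it, though both lie under a log2 fold change of 1. With spliced counts alone 48 members were tested, and Cyp2c66 was not among them. Its level was low, at 2.06 plain CPM in hepatocyte and 2.16 in endothelial nuclei of Liver. Each of the remaining 7 was lost in some fits. With the replicate block of mouse the counts were 7 higher and 4 lower, and Cyp2j5 (0.46, adjusted p = 0.0409) and Cyp4a32 (-0.86, adjusted p = 0.0206) passed, which did not pass without it (0.40, adjusted p = 0.156, and -0.92, adjusted p = 0.181). Cyp3a25 (-0.07) and Cyp2e1 (-0.04) had log2 fold changes near 0 and did not pass.

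Against Cell Suspension, 43 members were lower and 3 were higher in Primary Hepatocytes (edgeR), beside 37.4% lower and 37.2% higher of all genes at that level. Of the 38 that reached 2 CPM in every sample type, 35 were lower and 0 higher. The median log2 fold change was -3.87 over the 49 and -0.03 over all genes at that level, and 39 members did not overlap (46.9% of all genes). Both comparisons share the cultured samples, so their values are given side by side and not as separate evidence: Cyp3a25 had -6.05 against Liver and -5.98 against Cell Suspension, Cyp2c29 -4.81 and -5.35, Cyp1a2 -5.04 and -4.92, and Cyp2d10 -2.95 and -3.87, all on the log2 scale. The third member counted as higher was Cyp2g1, from 0 to 1.57 CPM in Cell Suspension to 1.77 to 3.61 in Primary Hepatocytes. It was chosen through that cultured level, so this is a description without a test, and its log2 fold change of 1.26 was 0.30 with spliced counts alone.

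By share of UMIs (plain CPM), the cultured level of many members was no higher than in endothelial nuclei of the same samples. Depth differed between the cell types. In Primary Hepatocytes the 14833 hepatocyte nuclei held 110819414 UMIs and the 1809 endothelial nuclei held 3368641. Endothelial nuclei thus held fewer UMIs each, and levels per nucleus were not compared. In plain CPM summed over the samples of a type, the level in endothelial nuclei relative to hepatocyte nuclei had a median over the 54 members of 16.9% in Liver, 19.1% in Cell Suspension and 101% in the cultured samples. Endothelial nuclei exceeded hepatocyte nuclei for 4 members in Liver (52.7% of all genes) and for 27 in Primary Hepatocytes (36.98% of all genes). Of the 27, 8 had under 20 endothelial counts, such as Cyp4a14 with 2 and Cyp2c69 with 4, so that their order is uncertain, while those named below had 28 or more. Cyp3a25 was at 3128 CPM in hepatocyte and 395 in endothelial nuclei of Liver, but at 66.4 and 139 in Primary Hepatocytes. Cyp2e1 was at 1345 and 168 in Liver, and at 45.8 and 106 in Primary Hepatocytes. Cyp1a2, Cyp2c29, Cyp2c54, Cyp2f2 and Cyp3a11 were also among the 27, and since these genes were lower in endothelial than in hepatocyte nuclei of Liver, their remaining cultured signal cannot be told apart from RNA of other origin. The cultured levels also include nuclei annotated against their sample type, such as 22 of 1631 hepatocyte nuclei in Primary Hepatocytes of mouse 4. The part of these nuclei in the cultured signal was not tested. Cyp4b1 and Cyp4f16, among the 27 as well, were higher in endothelial nuclei of Liver too. Hepatocyte nuclei stayed above endothelial nuclei in Primary Hepatocytes for Cyp2c70 (219 and 88.8 CPM), Cyp3a13 (151 and 44.5), Cyp2a5 (105 and 51.4), Cyp4f17 (63.0 and 21.1) and Cyp2b10 (44.6 and 12.8). Cyp2b10 was at 1.01 and 0.227 CPM in Liver, where the endothelial value rests on very few of 8793384 counts.

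**Figure D3:**
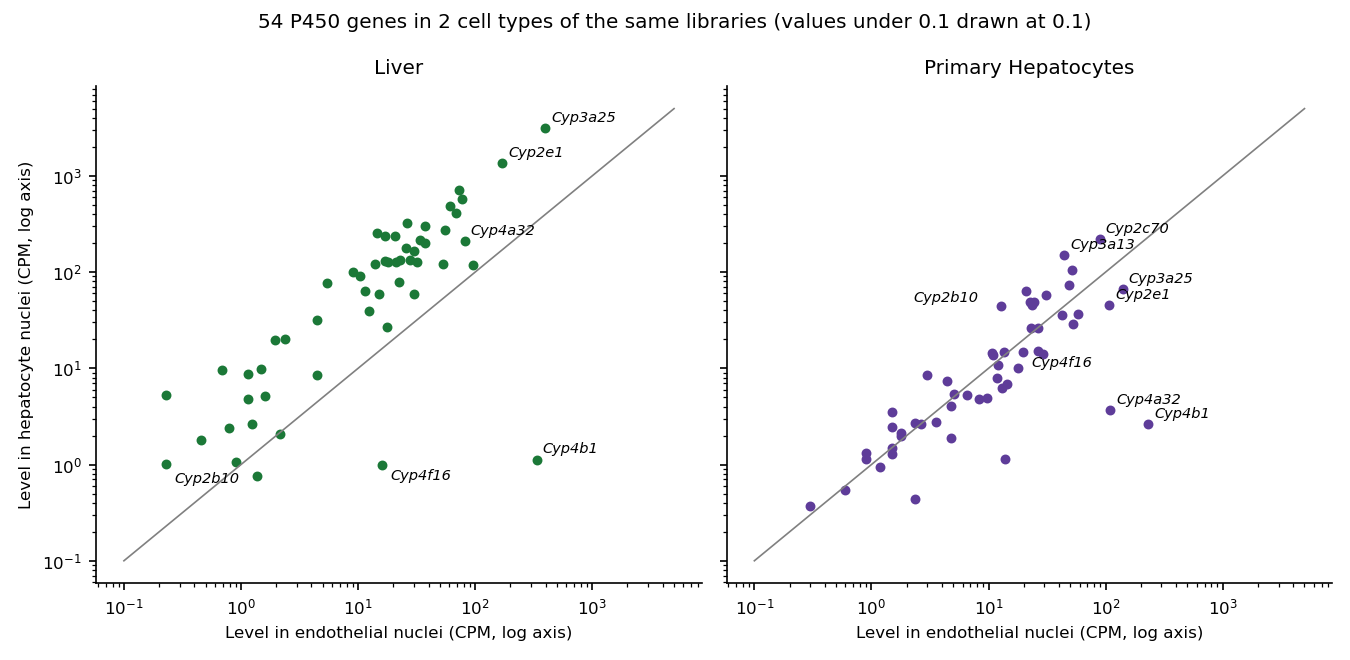
Level of the 54 members in endothelial nuclei (x axis) and hepatocyte nuclei (y axis), for Liver and for Primary Hepatocytes. Values are plain CPM pooled over samples on log axes, with the line of equal levels. In Liver 4 members lie below the line (higher in endothelial nuclei), among them Cyp4b1 and Cyp4f16, and in Primary Hepatocytes 27 do.

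Cyp4b1, a P450 of lung and vessels that activates pro-toxins, was a member only through its low cultured level in hepatocytes and was higher in endothelial nuclei in every sample type. Its endothelial level was 167 to 534 CPM in Liver (median 301), 159 to 309 in Cell Suspension (median 288) and 195 to 286 in the cultured samples (median 224). In hepatocyte nuclei it was at 1.12, 1.85 and 2.61 CPM over all samples of each type, and in Kupffer and stellate nuclei of Liver at 7.7 and 7.6 CPM. Its neighbour Cyp4a32 was at 81.2 CPM in endothelial and 211 in hepatocyte nuclei of Liver, and at 109 and 3.70 in those of Primary Hepatocytes. In GRCm38, Cyp4a32 ends at position 115621602 of chromosome 4 on the plus strand and Cyp4b1 begins at 115624725 on the minus strand, so the 2 genes end next to each other, and how reads between them were assigned was not tested. Cyp4f16 was at 0.988 CPM in hepatocyte nuclei of Liver against 16.03 in endothelial and 29.6 in Kupffer nuclei, and at 14.7, 19.9 and 58.8 CPM in Primary Hepatocytes, where the Kupffer value rests on 5 counts.

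Position in the lobule was read from a score per nucleus that used no P450 gene: the log2 ratio of 14 pericentral to 13 periportal genes after each nucleus was thinned to 1000 UMIs. In each sample the counts of the third with the highest score were set against those of the third with the lowest, and the 8 log2 ratios of a sample type were tested by an exact sign-flip permutation test, whose smallest p is 0.00781 (adjusted 0.0489 over all genes). In Liver 32 of the 49 members passed (19.5% of all genes), 26 of them pericentral and 6 periportal. Cyp2c38 had a median of 385 CPM in pericentral and 11.8 in periportal nuclei, a log2 ratio of 5.37 ± 1.06 (SD, n = 8 samples). Cyp2c29 (3.46 ± 0.66; 1216 and 106 CPM), Cyp2a5 (3.16 ± 0.53; 266 and 23.8 CPM), Cyp2e1 (2.67 ± 0.58; 2235 and 385 CPM) and Cyp1a2 (2.48 ± 0.36; 276 and 51.3 CPM) were pericentral in 8 of 8 samples. Cyp2f2 was the most periportal, with 56.6 CPM in pericentral and 325 in periportal nuclei (-2.64 ± 0.47), followed by Cyp2u1 (-0.89), Cyp2j5 (-0.42), Cyp4v3 (-0.38), Cyp3a13 (-0.36) and Cyp2j9 (-0.30). Cyp3a25 had a ratio of 0.22 ± 0.19 and did not pass. Every pass stands at the smallest p the test can give. Under 4 other ways of scoring or splitting the nuclei the smallest adjusted p lay between 0.0521 and 0.0707, so that no member passed. In Liver 28 to 31 members had the smallest p under them, a count that was not made over all genes.

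In Cell Suspension 23 members passed (20 pericentral and 3 periportal, 13.6% of all genes), among them Cyp2e1 (2.92 ± 0.31; 2186 and 290 CPM) and Cyp2f2 (-2.23 ± 0.40; 62.0 and 263 CPM). A test of the difference between Cell Suspension and Liver, an exact permutation of 8 against 8 samples, called 1 member (4.56% of all genes), Cyp2r1, whose ratio was lower by 0.65 (adjusted p = 0.0464). With the samples paired by mouse, a sign-flip test that cannot go below an adjusted p of 0.071 here, Cyp2r1 was lower in 6 of 8 mice (p = 0.0391, adjusted p = 0.165, exact). In Primary Hepatocytes 7 members passed (14.9% of all genes), and the ratios were small. There the median score averaged 4.14e-07 in the third of highest score and -1.87 in the third of lowest score. The first value is a score of 0, equal pericentral and periportal counts, plus the small random term that ordered ties. In Liver these were -0.531 and -3.72. Nuclei of the same score were ordered at random. In cultured nuclei of high and low score Cyp2e1 was at 56.5 and 45.1 CPM (0.25 ± 0.56) and Cyp1a2 at 7.24 and 6.73 (0.09). Cyp2a5, whose cultured level was above that in endothelial nuclei, was at 94.0 and 102 (-0.16). The ratio was below 0 for Cyp2a12 (-0.73), Cyp2f2 (-0.69 ± 0.26; 11.99 and 16.2 CPM), Cyp2d9 (-0.52), Cyp2d10 (-0.43) and Cyp2d26 (-0.36), and above 0 for Cyp2j8 (0.53) and Cyp4f16 (0.38). Of these 7, Cyp2f2 (15.3 CPM in hepatocyte and 26.7 in endothelial nuclei), Cyp2d9 (35.8 and 42.2) and Cyp4f16 (14.7 and 19.9) were among the 27 members with a cultured level no higher than in endothelial nuclei. The direction of the cultured ratios depended on the score. Members at the smallest p were 2 above and 5 below 0 as reported, but 10 and 0 with pericentral score genes alone, 1 and 12 with periportal score genes alone, 0 and 7 when nuclei were split at the median, and 1 and 2 after thinning to 500 UMIs. Cyp2b10 had 26.5 CPM in nuclei of high and 64.3 in nuclei of low score, a log2 ratio of -1.15 ± 0.54 that lay below 0 in 7 of 8 samples (adjusted p = 0.0728, exact sign-flip permutation).

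The difference between Primary Hepatocytes and Liver passed for 31 members (22.7% of all genes): 28 had a lower ratio, such as Cyp2e1 (by 2.42, adjusted p = 3.30e-03), and Cyp2f2, Cyp2u1 and Cyp2j8 had a higher one (by 1.94, 0.97 and 0.56). Against Cell Suspension it passed for 25 (23 lower and 2 higher, 17.5% of all genes). Paired by mouse, the difference had the same sign in 8 of 8 mice for 22 members against Liver (20 lower and 2 higher). Against Cell Suspension it did for 20 (19 lower and 1 higher). These counts were not made over all genes, so they describe the members alone. The score itself separated cultured nuclei less, since 40.0% of them lay within 0.5 of 0 against 5.99% in Liver and 5.15% in Cell Suspension. Median UMIs per nucleus in the groups of high and low score were 7731 and 7446 in Liver, 2850 and 4184 in Cell Suspension, and 6151 and 6205 in Primary Hepatocytes. What part the narrower score had in the smaller ratios was not tested.

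**Figure D4:**
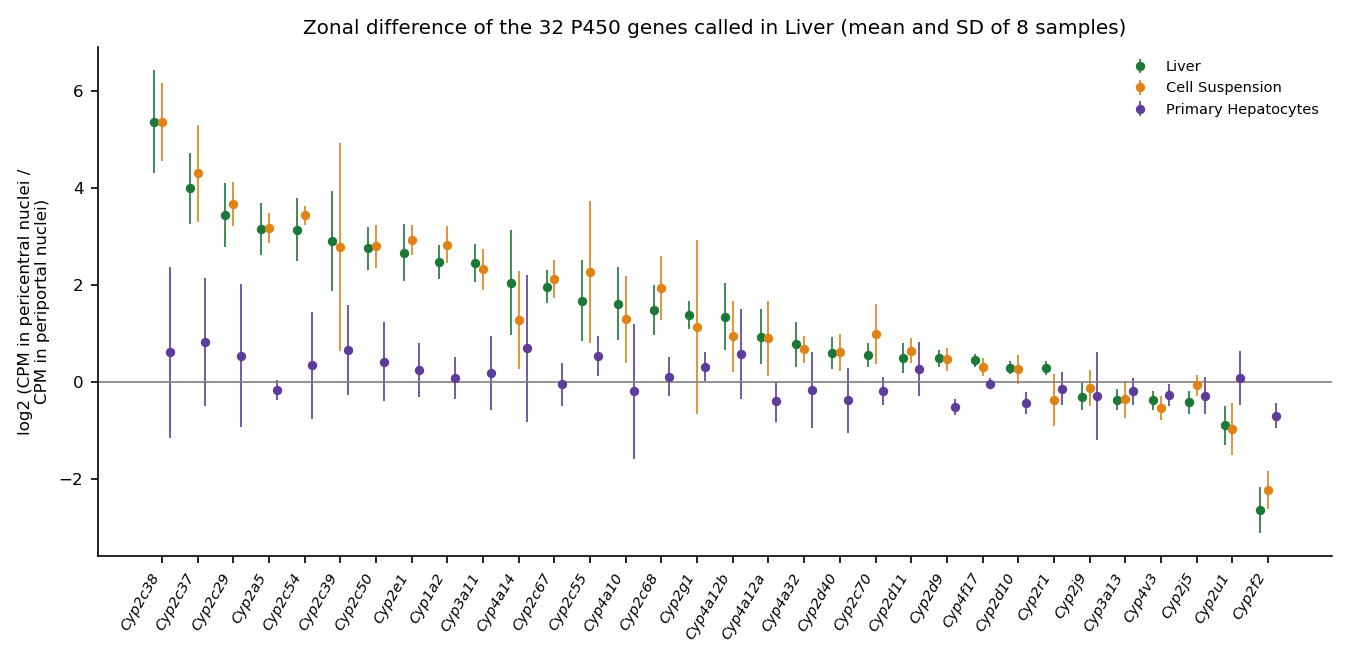
Mean log2 ratio of pericentral to periportal level, with its SD over 8 samples, of the 32 members that passed in Liver, for Liver, Cell Suspension and Primary Hepatocytes. In Primary Hepatocytes the terms name only the nuclei of high and low score. Points run from 5.37 (Cyp2c38) to -2.64 (Cyp2f2) in Liver, from 5.36 to -2.23 in Cell Suspension and from 0.82 to -0.69 in the cultured samples.

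Spliced and unspliced counts were deposited apart, and the spliced share of a gene's counts was compared for the 34 members with at least 20 such counts in every sample. Against Liver, 23 of the 34 had a higher and none a lower spliced share in Primary Hepatocytes (exact permutation test, Benjamini-Hochberg over genes), beside 69.6% higher and 3.79% lower of all genes. The median difference was 10.5 percentage points over the 34 and 4.90 over all genes. Cyp1a2 had 25.2% to 47.2% spliced counts in Liver (median 32.9%), 50.7% to 68.8% in Cell Suspension (median 59.2%) and 68.5% to 96.3% in the cultured samples (median 78.4%). Cyp2e1 had 10.9% to 19.8%, 21.2% to 26.2% and 45.7% to 80.4%, with no overlap between any of the 3 types. Cyp2c29 had 4.70% to 12.6% in Liver and 18.1% to 44.1% in Primary Hepatocytes, and Cyp3a25 had 5.88% to 26.0% and 16.02% to 22.8%, which overlapped and did not pass. Cyp1a2, Cyp2e1, Cyp2c29 and Cyp3a25 are among the 27 members whose cultured level was at or below that in endothelial nuclei.

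In Cell Suspension, 17 members had a higher and 1 (Cyp2c38) a lower spliced share than in Liver (65.2% and 2.08% of all genes). Cyp2d22 went from 46.3% to 59.97% in Liver to 68.8% to 77.3% in Cell Suspension and 70.7% to 76.3% in the cultured samples. From Cell Suspension to Primary Hepatocytes, 15 members were higher and 5 were lower (16.2% and 18.8% of all genes), the 5 being Cyp4f15, Cyp4a32, Cyp2a5, Cyp2u1 and Cyp2j6. Cyp2a5 had 16.7% to 24.0% in Liver, 30.7% to 51.3% in Cell Suspension and 24.2% to 39.7% in the cultured samples. Over all genes together the spliced share was 19.5%, 26.96% and 28.6%.

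Of the authors' clusters of cultured cells, 4 were taken as hepatocytes, numbered 0, 1, 14 and 17, with 5961, 5846, 1682 and 1271 nuclei. Since the clusters were drawn from the same expression data, levels in them are a description only. They are plain CPM, so they are not on the scale of the TMM-scaled levels above. Cyp3a13 had median levels of 204, 111, 128 and 57.9 CPM in clusters 0, 1, 14 and 17, and Cyp2a12 had 77.2, 25.1, 24.1 and 26.7. Both were highest in cluster 0. Cyp2f2 had 9.03, 10.2, 12.6 and 70.7 CPM, and Cyp2d26 had 32.3, 53.3, 33.4 and 99.1, so that both were highest in cluster 17. Cyp2b10 was lowest there (44.9, 39.7, 32.1 and 15.9 CPM), as was Cyp4f16 (13.5, 17.2, 16.9 and 6.06), and Cyp2c70 was much alike in all 4 (173, 194, 222 and 174).

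The members varied more between mice than other genes did. The between-mouse SD of log2 CPM had a median over the 49 members of 0.742 in Liver, 0.731 in Cell Suspension and 0.413 in the cultured samples, beside 0.283, 0.354 and 0.232 over all 13459 genes. It was above 1 for 14 members in Liver (28.6%, against 1.95% of all genes), for 19 in Cell Suspension (38.8% against 3.25%) and for 0 in Primary Hepatocytes (0.342%). The values per mouse fell into a few shapes, which are given by sample and without a test.

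Cyp3a25 was lowest in mice 5, 6 and 8, at 1542, 1300.5 and 2208 CPM in Liver against 3952 to 5188 in the others, and at 1489, 1247 and 1911 CPM in Cell Suspension against 3174 to 5124. Cyp3a59 (69.4 and 47.2 CPM against 277 to 597) and Cyp3a11 (84.8 and 68.4 CPM against 259 to 595) were also lowest in mice 5 and 6. Cyp2c70 was highest in those 2 mice, at 2511 and 1469 CPM in Liver, with 428 in mouse 3 and 65.4 to 187 in the rest, and at 1957 and 1091 CPM in Cell Suspension. Cyp4a12a, a male-biased fatty acid hydroxylase, was at 242 and 232 CPM in the livers of mice 5 and 6, at 74.8 in mouse 3 and at 20.3 to 36.4 in the rest. The Liver and Cell Suspension samples of mouse 5 were run in different pools, as were those of mouse 3, while those of mouse 6 were both run in pool 6.

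Cyp2c67 stood at 1124 CPM in the liver of mouse 5 and at 435 in mouse 3, and at 985 and 346 in their Cell Suspension samples. The other shape belonged to mouse 3. Cyp4a10 was at 168 CPM in its liver and at 4.61 to 43.9 in the rest, and at 156 in its Cell Suspension. In the same liver Cyp4a14 was at 93.2 CPM, Cyp4a32 at 683 and Cyp2c38 at 774, with Cyp2c38 at 857 in its Cell Suspension. In Primary Hepatocytes the ranges were narrower: Cyp2c67 spanned 28.0 to 42.4 CPM, Cyp4a12a 3.01 to 7.39 and Cyp4a10 0.376 to 1.76, while Cyp2c70 was highest in mouse 6 (386 CPM), not in mouse 5 as in the other sample types.

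**Figure D5:**
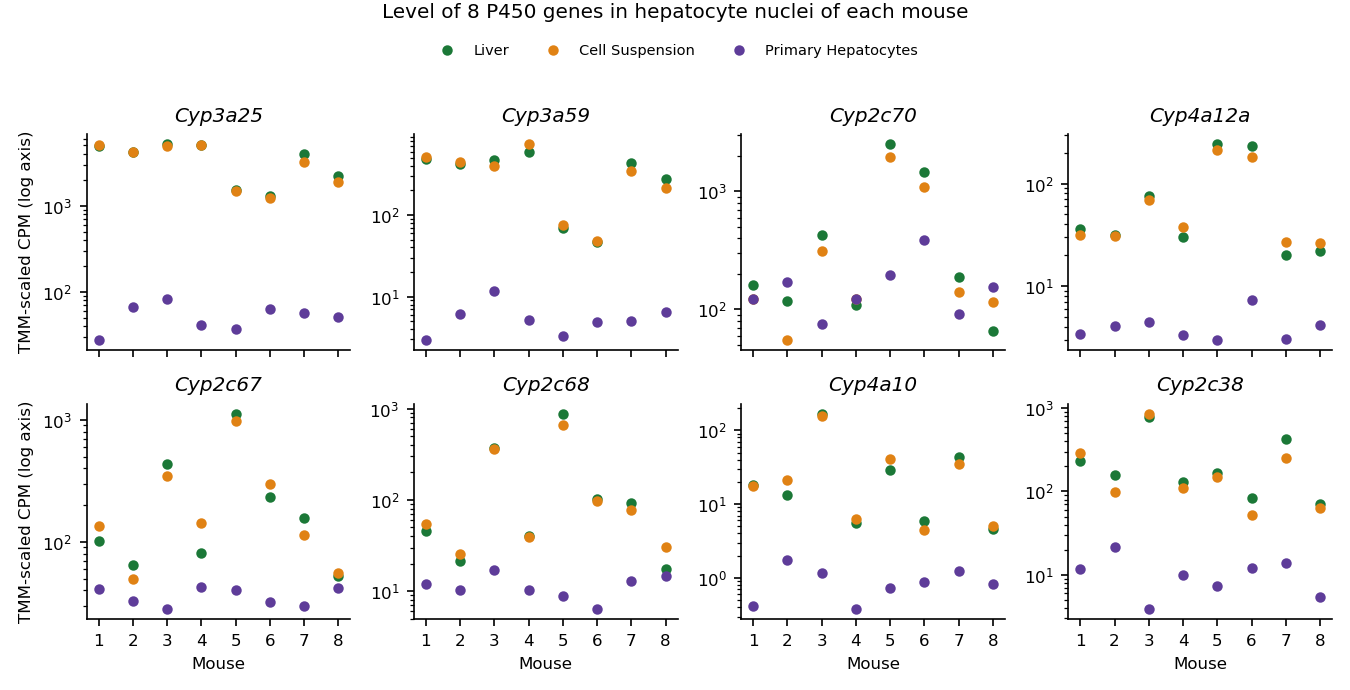
Level of 8 members in each mouse (x axis, mice 1 to 8) in TMM-scaled CPM on a log axis, with 1 point per sample. Liver and Cell Suspension of a mouse lie together, with mice 5 and 6 low in Cyp3a25 and high in Cyp2c70. Mouse 3 is high in Cyp4a10 and Cyp2c38, and the Primary Hepatocytes points span a narrower range.

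The pathway around the P450 enzymes was read from gene lists. Of 18 transcription factors and receptors that regulate P450 genes, 15 were lower in Primary Hepatocytes than in Liver, beside 40.9% of all genes, 1 was higher (Ahrr, 0.84 on the log2 scale), beside 32.8%, and 2 did not pass. Ahrr was near the floor, with 0.424 to 1.12 CPM in Liver and 0.951 to 2.10 in Primary Hepatocytes. Besides Nr1i3, Ppara went from 1158 to 2173 CPM to 111 to 269 (-3.35 ± 0.22), the pregnane X receptor gene Nr1i2 from 176 to 419 CPM to 28.6 to 48.1 (-2.80 ± 0.17) and Hnf4a from 399.8 to 618 CPM to 95.8 to 213 (-1.63). None of the 3 overlapped. Ahr did not pass (0.27, with 67.5 to 171 CPM in Liver and 116 to 191 in Primary Hepatocytes), while its target Cyp1a2 fell, and its targets Cyp1a1 and Cyp1b1 did not pass. Cyp1a1 and Cyp1b1 were not members, with highest group means of 1.02 and 0.355 plain CPM. At such levels not passing says little about them. In Cell Suspension, Cebpb (2.43), Cebpa (0.90) and Rxra (0.77) were higher than in Liver, and Nr1h4 (-0.53) was among those lower.

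Among P450 genes grouped by known inducer or bias, not all of them members, all 3 Cyp3a targets of the pregnane X receptor and all 4 male-biased genes (Cyp2d9, Cyp2u1, Cyp4a12a and Cyp4a12b) were lower, where 40.9% of all genes were. Of the 4 targets of PPAR-alpha, Cyp4a32 was lower, and Cyp4a10, Cyp4a14 and Cyp4a31 are descriptions, as given above. Of 8 targets of the constitutive androstane receptor, 4 (Cyp2c29, Cyp2c37, Cyp2c50 and Cyp2c54) were lower and 3 did not pass. Of those that did not pass, Cyp2b9 and Cyp2b13 lay under the 2 CPM on which the 40.9% rests. The remaining target, Cyp2b10, is a description, as given above. None of 7 female-biased P450 genes, whose medians in Liver were only 0.0573 to 0.7003 CPM, passed against Liver, and against Cell Suspension Cyp2b9 and Cyp3a44 were lower.

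All 5 electron donor genes were lower (40.9% of all genes were), with Por at 344 to 1158 CPM in Liver (median 622) and 270 to 426 in Primary Hepatocytes (median 319), a log2 fold change of -0.92 ± 0.22 (adjusted p = 6.92e-04). The cytochrome b5 gene Cyb5a fell by 1.46. All 8 genes of haem synthesis were lower too, including Alas1, the rate-limiting enzyme (88.2 to 2115 CPM, median 262, to 75.2 to 121 CPM, median 91.7; -2.75 ± 0.54), and Alad (-3.17). Of the 4 genes of haem breakdown, Hmox1, the inducible haem oxygenase, had 0.965 to 4.91 CPM in Liver, 4.68 to 75.4 in Cell Suspension and 114 to 262 in the cultured samples. Every cultured sample lay above every other, and its log2 fold change was 5.72 ± 0.41 against Liver (adjusted p = 2.52e-13) and 3.32 ± 0.37 between Cell Suspension and Liver. Blvra was higher by 0.47, Hmox2 was lower (-0.53) and Blvrb did not pass.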

How the data were processed

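Nuclei of the 24 samples were hashtagged and sequenced in 6 pools (10x). Per the labels and the study's methods, the authors converted reads with bcl2fastq 2.19.0 (submitters' processing notes), quantified them with Salmon alevin and alevin-fry against a custom reference that keeps spliced and unspliced transcripts of GRCm38 apart, filtered barcodes by their rank, assigned hashtags, removed negatives, hashtag doublets and inferred doublets, and annotated cell types. They deposited raw UMI counts (spliced, unspliced and ambiguous) per pool. The hashtag class CD2 was read as Cell Suspension of mouse 2, since the annotation puts its nuclei in Cell Suspension and no other class names that sample. Hashtag matrices were not used, and 0 columns of per-sample values lacked a sample. Barcodes shared by pools numbered 337 (0.634% of 53128).

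From these counts, the 3 kinds were summed over the hepatocyte nuclei of each sample (types Hepatocytes, Isolated Hepatocytes and Cultured Cells in clusters 0, 1, 14 and 17), and genes with at least 10 counts over 24 samples were tested with edgeR 4.0.16 (R 4.3.3, limma 3.58.1): TMM, quasi-likelihood, 3 groups of 8 in 1 fit, Benjamini-Hochberg over all genes tested. Shares and zonal ratios (pseudocount of 0.5 counts) were tested by exact permutation (Python 3.11.15, numpy 2.4.6, pandas 2.3.3, scipy 1.17.1), transcripts were aligned with blastn 2.17.0, and figures drawn with matplotlib 3.10.9. Alternatives were DESeq2 1.42.0, RLE or no scaling factors, other filters and count types, all nuclei, thinning, pool as a covariate, a mouse block and leaving out each mouse. The edgeR fit (changes in Primary Hepatocytes alone), the sign-flip test and the spliced-share test were tested on simulated data. The members, the lists and the rule for named genes (the highest member of each subfamily, the 6 largest rises and falls per comparison, receptor targets and genes beside the 2 CPM limit; others were named for completeness) were chosen with earlier results of these data known.

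The same number was taken to mark the same mouse in the 3 sample types. The study's methods take the 3 samples from each mouse but do not describe the numbering. Over 8600 genes, deviations from the group means of same-numbered samples correlated at 0.342 to 0.846 between Liver and Cell Suspension. They correlated at -0.051 to 0.113 between Liver and Primary Hepatocytes and at -0.143 to 0.113 between Cell Suspension and Primary Hepatocytes. For 7 Liver samples the best match in Cell Suspension had the same number. In Primary Hepatocytes this held for 1 Liver and 1 Cell Suspension sample, so these correlations cannot check the pairing with culture. Per-sample totals of 2065229 to 29018248 UMIs make counting error small beside the spread between mice, though members of a few CPM have larger counting error. The values of 1 listed regulator, counted with the others, are not given here.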

Additional observations from a re-analysis of the deposited data

Results flagged for a closer look

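For each of the 54 members and each sample type, the gap between the most extreme sample and its neighbour was compared with the whole range of the 8 samples. A sample stood apart in 24 of 162 such groups (14.8%), where chance gives about 1 in 20 of normally spread values and 6.98% was found over all 13459 genes. All 24 lay at the high end, as did most of those over all genes (84.8% to 86.6%). Levels were compared as CPM without a log, and Liver and Cell Suspension of a mouse are not independent. Of the 24, 12 were samples of mouse 3, 6 of mouse 5, 3 of mouse 6, 2 of mouse 4 and 1 of mouse 7, and 9 were in Liver, 11 in Cell Suspension and 4 in the cultured samples.

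Mouse 3 stood apart in the Cyp4a genes in both Liver and Cell Suspension: Cyp4a32 was at 683 and 327 CPM, Cyp4a10 at 168 and 156, Cyp4a14 at 93.2 and 63.4 and Cyp4a31 at 25.0 and 13.9. In its Cell Suspension alone Cyp2c38 was at 857 CPM, Cyp2c50 at 227 and Cyp2r1 at 34.7, and in its Primary Hepatocytes Cyp3a59 was at 11.6. Mouse 5 stood apart in neighbouring Cyp2c genes: Cyp2c67 was at 1124 CPM in Liver and 985 in Cell Suspension, Cyp2c40 at 42.2 and 30.8, and in Liver alone Cyp2c68 was at 882 and Cyp2c69 at 19.2. Mouse 6 stood apart in Primary Hepatocytes, with Cyp2c70 at 386 CPM, Cyp4a12a at 7.39 and Cyp2u1 at 5.67. The remaining values were Cyp1a2 in Cell Suspension of mouse 4 (403 CPM), Cyp4v3 in Liver of mouse 4 (216) and Cyp2j13 in Cell Suspension of mouse 7 (1.56).

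The pericentral to periportal ratio differed between sample types by the exact permutation test of the difference for 31 members between Primary Hepatocytes and Liver, for 25 between Primary Hepatocytes and Cell Suspension and for 1 between Cell Suspension and Liver. That test treats the samples as unpaired although the mice are shared.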

How the results depend on the processing

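The members lower in Primary Hepatocytes than in Liver numbered 39 to 44 and those lower than in Cell Suspension 39 to 43 under every alternative run, with 2 or 3 and with 3 members higher. With the replicate block (mouse), 43 were lower and 2 higher than in Liver, 41 lower and 3 higher than in Cell Suspension, and 7 higher and 4 lower in Cell Suspension than in Liver, and the spliced share was called in 22 against Liver. The block ended the calls of Cyp2c70 against Liver, and of Cyp4f17 and Cyp2c40 (a description) against Cell Suspension, and added Cyp2j5 and Cyp4a32 between Cell Suspension and Liver. Leaving out each mouse in turn gave 41 to 44 lower against Liver, 41 to 43 against Cell Suspension, and 4 to 6 higher and 1 to 2 lower for Cell Suspension against Liver. In that last comparison 1 member was lower (3 as reported) within pools that hold both types, with all nuclei and with counts thinned to the smallest total, 3 were higher without scaling factors (6 as reported), and at an absolute log2 fold change of at least 1 only 1 was called, 1 higher and 0 lower. Spliced shares with at least 50 counts called 11 for it instead of 18, with 25 members tested instead of 34. Without scaling factors, chosen as an alternative after seeing the data like the addition of cluster 8, the median of all genes was 0.57 above 0 on the log2 scale against Liver, and Cyp2c55 turned to 0.022 against Liver and 0.38 against Cell Suspension, while it was -0.78 (adjusted p = 0.0375) within pools that hold Liver and culture. Cyp2g1 turned to -0.062 against Liver with spliced counts alone, and was 0.60 with all nuclei and 0.85 without scaling factors. Zonal calls fell to 0 in Liver, Cell Suspension and Primary Hepatocytes when each sample was split at its median score, thinning to 500 UMIs, pericentral score genes alone or periportal score genes alone, since the smallest adjusted p rose to 0.0521, 0.0569, 0.0707 and 0.0529. The zonal differences between sample types, called in 31, 25 and 1 members, were called in 0 with the replicate block (mouse), a test chosen after seeing the data whose smallest adjusted p was 0.071.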

Other observations

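P450 genes of families 5 and above, which make bile acids, steroids and vitamin D, were measured beside the 54. Of 19 such genes, taken at any level, culture left 7 lower and 6 higher than in Liver (edgeR, adjusted p under 0.05). The 40.9% and 32.8% used above rest on genes averaging 2 CPM or more. They are no match for these 19, so the counts describe the 19 alone. Cyp7a1, the rate-limiting enzyme of bile acid synthesis, had 64.1 to 339 CPM in Liver (median 188), 56.0 to 341 in Cell Suspension (median 114) and 0.645 to 3.31 in Primary Hepatocytes (median 1.44), a log2 fold change of -6.68 ± 0.44. Cyp8b1, the sterol 12-alpha-hydroxylase, went from 14.8 to 51.8 CPM to 1.40 to 3.95 (-3.74), and Cyp27a1 of the acidic pathway by -2.78. Among the 6 that were higher, Cyp20a1 went from 10.6 to 17.5 CPM in Liver to 25.9 to 46.2 in Primary Hepatocytes (1.34 on the log2 scale), while Cyp11b1 (0 to 0.148 and 0.689 to 2.58 CPM) and Cyp27b1 (0 to 0.144 and 0.266 to 0.773 CPM) were nearly without counts in Liver.

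The mice that stood apart in Cyp2c70 and Cyp4a12a did so in genes outside the 54 as well. Onecut1, which encodes HNF6, a hepatocyte transcription factor, was at 1978 CPM in the liver of mouse 5, 1701 in mouse 6, 274 in mouse 3 and 36.2 to 72.4 in the rest, and at 1889.6, 1806 and 342 CPM in Cell Suspension of mice 5, 6 and 3. Cyp7b1, the oxysterol 7-alpha-hydroxylase, was at 13088 CPM in the liver of mouse 5, 7836 in mouse 6, 4109 in mouse 3 and 562 to 753 in the rest. Alas1 was at 2115 CPM in the liver of mouse 6, 1058 in mouse 5, 857 in mouse 8 and 88.2 to 276 in the rest, mouse 3 included. These genes were chosen after their values were seen, and no test was made.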
